A study of Sus scrofa with 6 samples.

Results

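Peroxisomes are small organelles that oxidise fatty acids and make ether lipids, and catalase (CAT) is the enzyme that breaks down the hydrogen peroxide their oxidases release. The 35 genes described here are CAT, 13 peroxins (PEX genes, which build the organelle and bring proteins into it), membrane transporters and enzymes of the organelle. They were found by the symbol of their gene identifier, and where no symbol matched, by the protein name in the deposited annotation. In all 28 genes were found by symbol with 1 gene model each, and 7 by protein name with 11 models, which makes 39 of the 19670 models of the series. RNA was measured in 6 libraries of primary cells that were freed by enzymes from the external ear (auricular) cartilage of 1 wild-type PPARD pig aged 4 months, a cross given as Duroc x (Landrace x Large White). GW0742, a drug-like activator of PPARD, was given for 24 h in 3 libraries, and the solvent DMSO for the same time in the other 3. Whether each library came from its own culture is not stated, and the p-values below therefore cover only library-to-library spread, which may be technical.

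PPARD and its relative PPARA are nuclear receptors that sense fatty acids and switch on genes of lipid use, and the family took its name from compounds that make peroxisomes multiply in rodent liver. Proteins of the peroxisome interior are made in the cytosol and carried in by soluble receptors, while the enzymes inside shorten very long and branched fatty acids and start the synthesis of plasmalogens. Cartilage cells hold peroxisomes too, and inherited loss of PEX7, GNPAT or AGPS causes a skeletal disease, rhizomelic chondrodysplasia punctata. The comparison asks whether a change of catalase RNA with GW0742 is shared by the other genes of the organelle.

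Libraries held between 13133894 and 16913742 estimated reads, and 14146 models were deep enough to test. Of the cartilage markers, FMOD stood at 1181 and 1183 RPKM (reads per model length and library total, a level that can be compared between genes) with DMSO and GW0742, COL2A1 at 114 and 108 RPKM and SOX9 at 9.89 and 8.98 RPKM, while the group means of HAPLN1, COL9A1 and MATN3 were at or under 2.09 RPKM. ACAN, the core protein of aggrecan, was lower with GW0742 (105 and 75.7 RPKM, log2 -0.50 ± 0.06, edgeR adjusted p = 0.0185), and the 8 cartilage markers summed to 1549 to 1585 RPKM with DMSO and 1472 to 1523 RPKM with GW0742. COL11A1 had log2 -0.28 ± 0.07 (adjusted p = 0.114 in edgeR and 0.00683 in DESeq2). The fibroblast markers COL1A2 and VIM stood at 7108 and 6843 RPKM with DMSO and 6416 and 6921 RPKM with GW0742, and THY1 had log2 -0.28 ± 0.06 (adjusted p = 0.0788 in edgeR and 0.000519 in DESeq2). The 5 matched fibroblast markers of 6 summed to 15110 to 15550 RPKM with DMSO and 14250 to 15090 RPKM with GW0742, without overlap. That difference lay mostly in COL1A2, which did not pass (log2 -0.17 ± 0.07, edgeR adjusted p = 0.268). COL3A1 stood at 953 and 923 RPKM, while VIM and S100A4 (95.8 and 105 RPKM) had higher means with GW0742. Summed over their matched markers, adipocyte genes (3 of 6 matched) reached at most 1.35 RPKM in any library, erythrocyte genes (4 of 6) 1.89, keratinocyte genes (5 of 6) 2.58, hepatocyte and kidney genes (3 of 6) 4.70 and leukocyte genes (4 of 7) 13.6 RPKM. No matched marker was at 0 in all libraries.

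All 35 genes had reads in these cells, and their levels per length spanned a wide range. PEX19, a chaperone for membrane proteins, had the highest mean over the 6 libraries (34.0 RPKM), followed by CAT (31.7 RPKM), the protease LONP2 (30.1 RPKM) and the cofactor carrier SLC25A17 (27.7 RPKM). With DMSO, CAT ranked 4 among the 39 models (23.3 ± 1.3 RPKM, SD, n = 3), below PEX19 (35.5 ± 1.9 RPKM), SLC25A17 (29.6 ± 0.85 RPKM) and LONP2 (28.5 ± 3.5 RPKM). With GW0742 its level was the highest of the 39, at 39.97 ± 1.7 RPKM, above PEX19 (32.5 ± 0.53 RPKM). The place of PEX19 depends on the length used: its deposited RPKM was 2.11 times its mean CPM per 1000 bases of the listed model length of 5834 bases, while this ratio was 0.912 to 0.961 in the other 38 models. By the listed length PEX19 ranked 8 with DMSO and 9 with GW0742, and CAT ranked 3 and 1. The place of LONP2 is that of 1 model of 833 bases. Further LONP2 models, described below, stood at 13.7, 8.15 and 14.5 RPKM over all libraries. At the lower end were PEX11G (1.14 RPKM over all libraries), 1 model of the transporter ABCD4 (0.28 RPKM) and the transporter ABCD2 (0.056 RPKM).

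**Figure D1:**
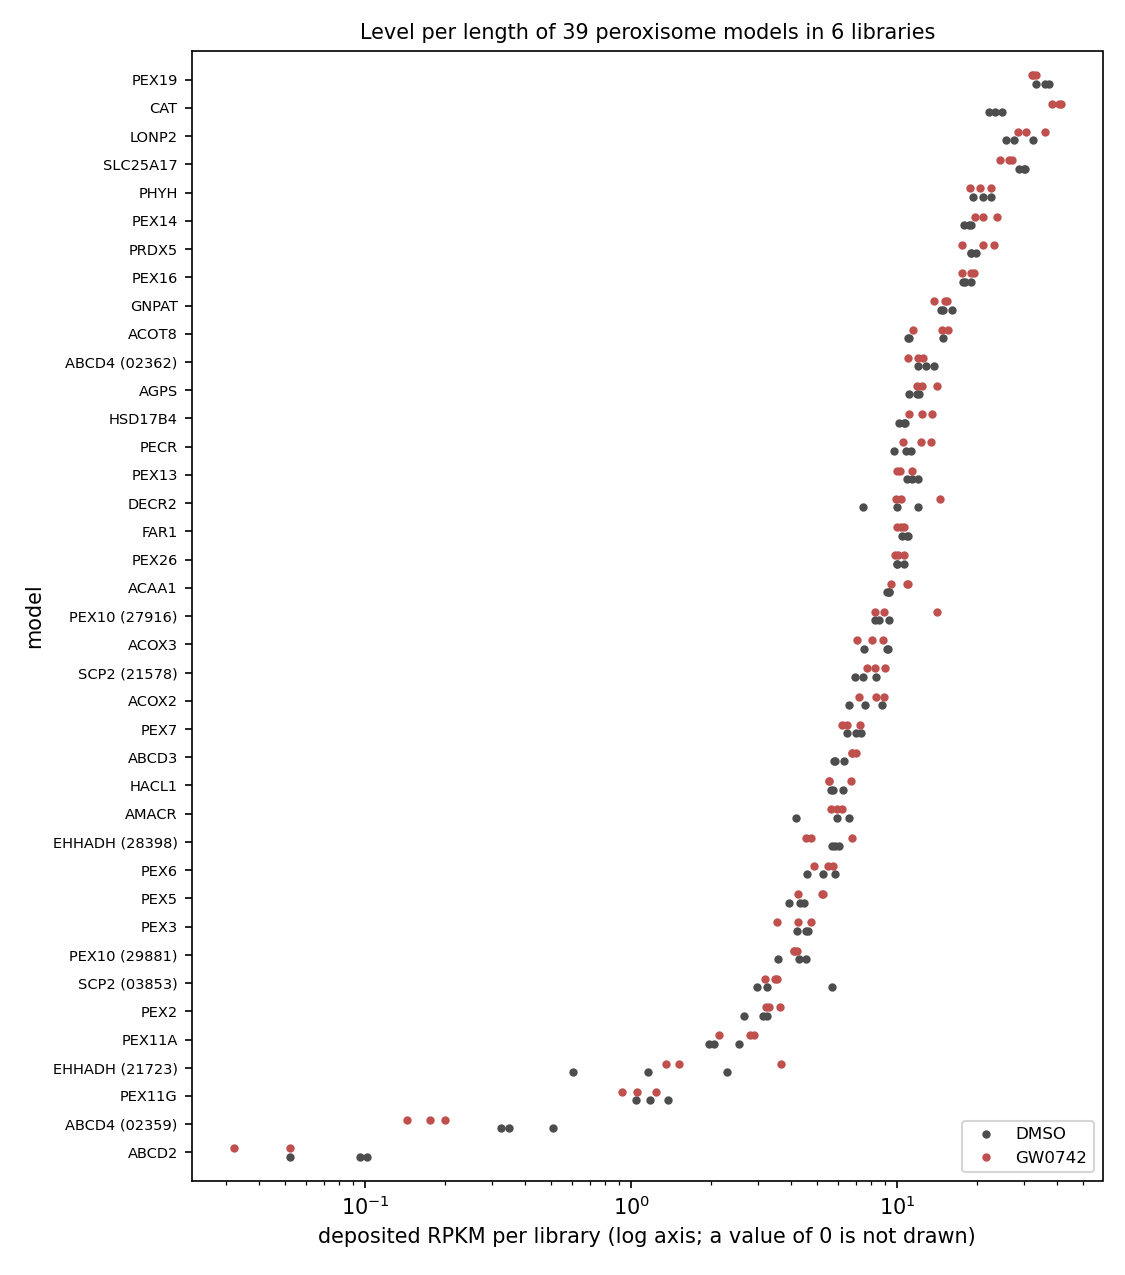
Deposited RPKM (log axis) of the 39 peroxisome models in 3 DMSO libraries (grey) and 3 GW0742 libraries (red), with 1 point per library; numbers in brackets are the last digits of the identifier where a gene has more than 1 model. In CAT and in the lower of the ABCD4 models the groups stand well apart, and CAT moves from 23.3 to 39.97 RPKM on average.

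Catalase rose with GW0742. CAT (ENSSSCG00000013302) had 65.7, 63.5 and 59.6 CPM (reads scaled to a common library total, with TMM factors) in DMSO replicates 1, 2 and 3, and 109, 107 and 102 CPM in GW0742 replicates 1, 2 and 3. The lowest treated library was far above the highest control, and the spread within each group was small, at 62.9 ± 3.1 and 105.9 ± 3.5 CPM (SD, n = 3). The log2 fold change was 0.75 ± 0.06 (SE, adjusted p = 0.00384 by the quasi-likelihood test of edgeR over all tested models), with a 95% interval of 1.52-fold to 1.86-fold. Only 4 of the 14146 models had a smaller adjusted p, although 338 had a higher log2 value. CAT was chosen with earlier results of these data known, so its rank and p-value follow in part from that choice. As background, the mean CPM of CAT changed 1.68-fold, beside 8.76-fold for ANGPTL4, an inhibitor of lipoprotein lipase that PPARD is known to switch on, and 3.84-fold for CPT1A, the entry enzyme of mitochondrial fatty acid oxidation. PPARD itself stood at 51.5 ± 3.8 and 55.7 ± 2.5 CPM (adjusted p = 0.499). In these bulk libraries more RNA per cell and more cells with the RNA cannot be told apart. Among marker lists, the 5 matched endothelial genes of 6 also had log2 values above 0, with summed levels of 59.6 to 91.6 RPKM with DMSO and 97.9 to 125 RPKM with GW0742. CLDN5 made up most of that sum (68.7 and 94.0 RPKM, 1.34-fold by CPM). The fold was larger in PECAM1 (2.24), KDR (2.92), TIE1 (2.99) and ESAM (3.06), above that of CAT. However, the 95% interval of each of the 5 held the CAT estimate. KDR, TIE1 and ESAM had only 6 to 26 reads in each DMSO library. By CPM, PECAM1, KDR, TIE1 and ESAM were all highest in GW0742 replicate 2. ESAM had 37, 127 and 32 reads in the GW0742 libraries, and PECAM1 369, 561 and 239. TIE1 overlapped between the groups, with 7 reads in GW0742 replicate 3. None of the 5 passed in edgeR. At an unadjusted p under 0.05 in edgeR all 5 were higher, beside 7.93% of all tested models. DESeq2 called 2 as higher, beside 1.46% of all tested models. The part of these genes, and of the lower cartilage and fibroblast sums given above, in the change of CAT was not tested.

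No other peroxisome gene passed. Of the 39 models 38 (34 genes) were deep enough to test, of which 1 was higher, 0 were lower and 37 did not pass an adjusted p under 0.05. Over all tested models 0.184% were called higher and 0.0778% lower. At an unadjusted p under 0.05 in edgeR, 3 of the 38 were higher and 2 lower, beside 7.93% and 8.91% of all tested models. DESeq2, which called 3.12% of all models and 1.46% as higher, called CAT and none of the other 37. The median log2 value of the 38 was 0.04 (0.01 in the 37 other than CAT), and that of all tested models -0.0015. Of the 38 values 21 were above 0 and 17 below (55.3% above, beside 49.8% of all models). The lower and upper quartiles were -0.11 and 0.16 in the peroxisome models and -0.14 and 0.15 in all.

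**Figure D2:**
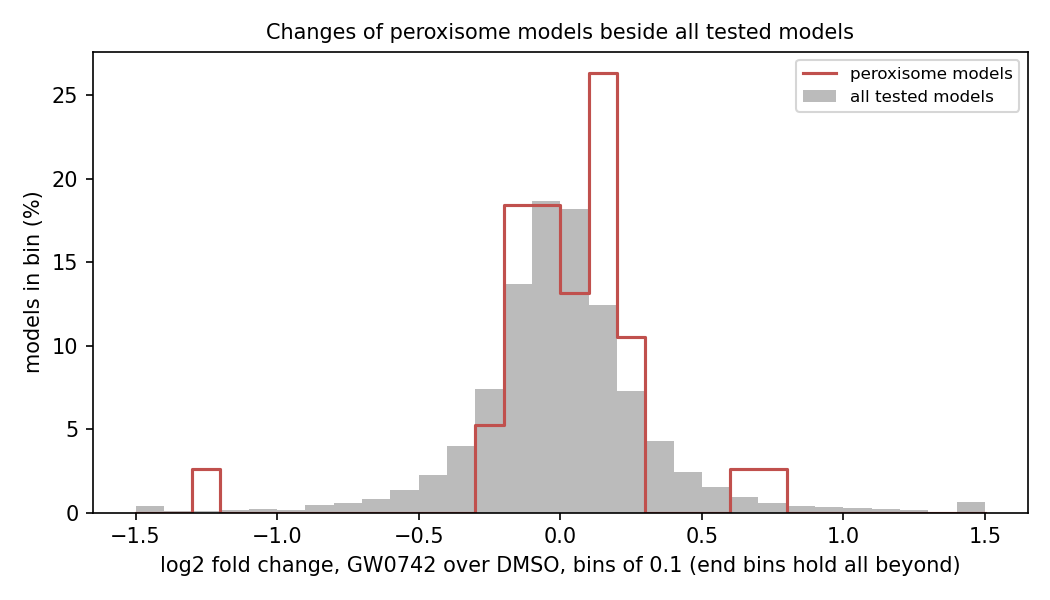
Share of models (%) in bins of log2 fold change, GW0742 over DMSO, for all 14146 tested models (grey bars) and the 38 tested peroxisome models (red line); the end bins hold all values beyond them. Apart from CAT at 0.75, an EHHADH model at 0.68 and an ABCD4 model at -1.25, the peroxisome models lie between -0.3 and 0.3.

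Most members could be told apart from the size of the catalase change, as could most other tested models. The 95% interval of the log2 fold change lay wholly below the CAT estimate of 0.75 in 36 of the other 37 tested models, beside 85.4% of all other tested models. The exception was the short EHHADH model ENSSSCG00000021723, whose interval ran from -0.53 to 1.89 and held both 0 and the CAT value. The uncertainty of the CAT value itself is not part of that count. CAT was also chosen with earlier results of these data known, so this count and the ratios below follow in part from that choice. The interval held 0 in 33 of the 37, lay above it in PEX14 and HSD17B4 and below it in SLC25A17 and the lower ABCD4 model, and these intervals are not corrected for the number of models. Their median half-width was 0.26, or 1.20-fold. A call over all models needs a larger change than this, and the ABCD4 model at -1.25 was not called. Within each library, the ratio of CAT to another member needs no scaling between libraries. This ratio was higher in every GW0742 library than in every DMSO library for 34 of the 37 models, beside 85.0% of all models with reads in each library. The 3 exceptions were the PEX10 model ENSSSCG00000027916, DECR2 and the EHHADH model ENSSSCG00000021723.

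**Figure D3:**
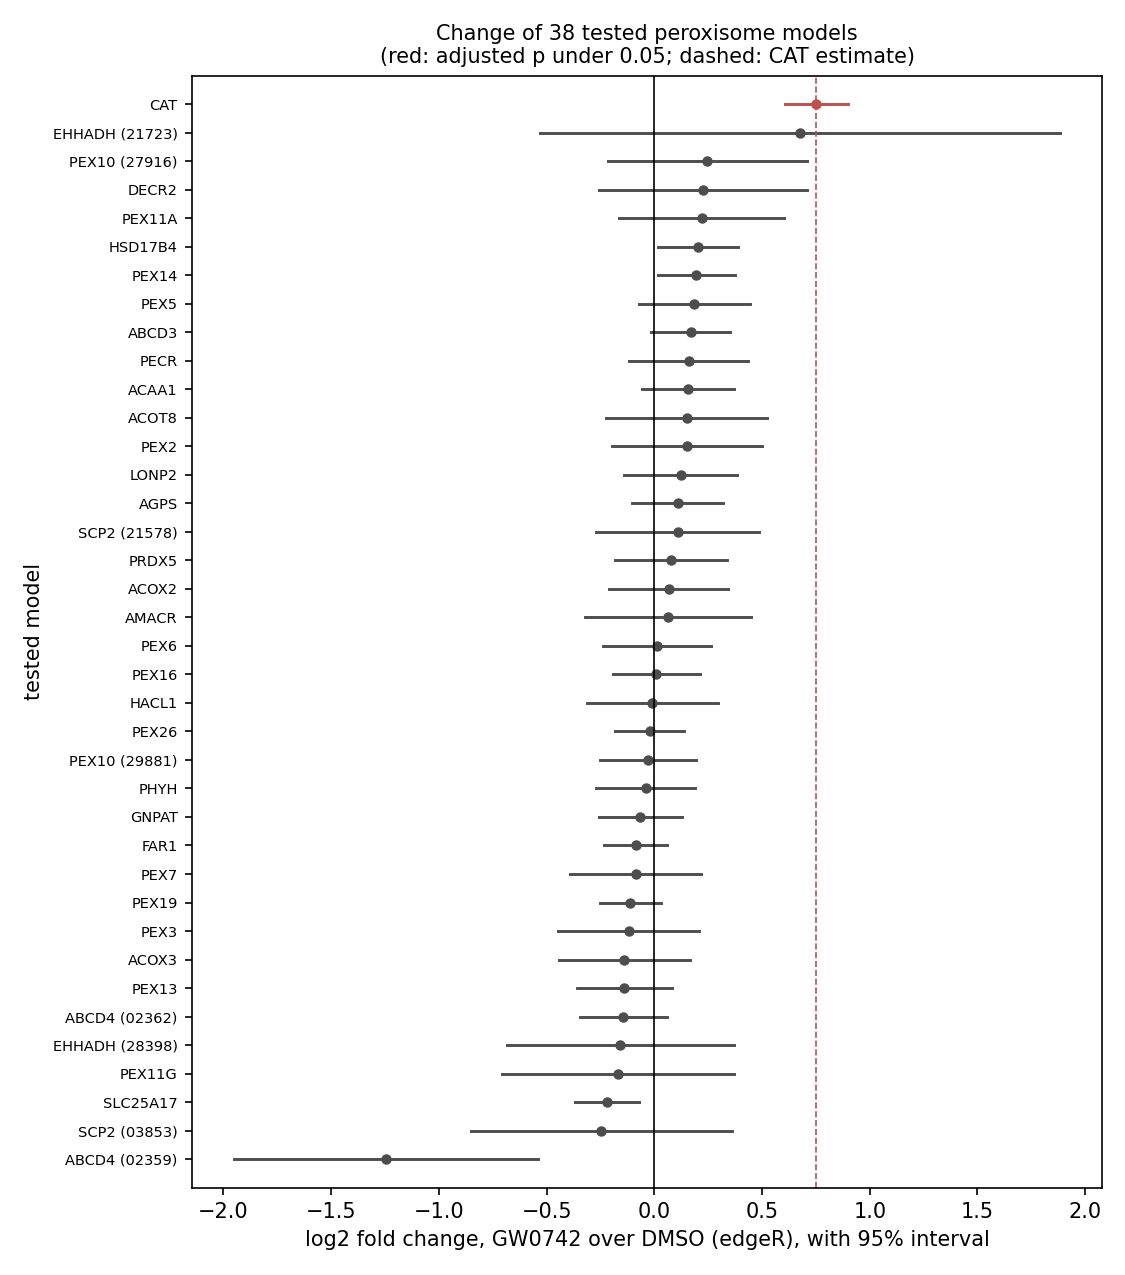
Log2 fold change, GW0742 over DMSO, with its 95% interval for each of the 38 tested peroxisome models, ordered by value; CAT, the model with an adjusted p under 0.05, is in red and the dashed line marks its estimate. All other intervals except that of the EHHADH model at 0.68 end below the dashed line, and 33 of them cross 0.

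The summed level of the 39 models was 411 ± 7.0 RPKM with DMSO and 439 ± 4.9 RPKM with GW0742. Without CAT the sums were 388 ± 6.1 and 399 ± 5.5 RPKM, with 394, 382 and 387 RPKM in the DMSO libraries and 393, 401 and 404 RPKM in the GW0742 libraries, so that the groups overlapped. PEX19 entered these sums at its deposited RPKM, with 37.0, 36.0 and 33.3 in the DMSO and 33.1, 32.1 and 32.3 in the GW0742 libraries. The overlap depends on that model: with PEX19 left out as well, every GW0742 sum was above every DMSO sum. These sums were not scaled by the TMM factors, which were 0.978 to 1 with DMSO and 0.995 to 1.02 with GW0742. The part of that scaling in the separation was not tested. CAT made up 5.68% ± 0.26 of the sum with DMSO and 9.11% ± 0.42 with GW0742. Groups did not overlap in 5 models that were higher with GW0742 (CAT, PEX14, ABCD3, HSD17B4 and ACAA1) and in 5 that were lower (PEX19, PEX13, SLC25A17, FAR1 and an ABCD4 model), beside 11.4% and 12.1% of all tested models.

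The import receptors and their docking sites did not pass. PEX5, the receptor for proteins with a C-terminal targeting signal such as that of catalase, stood at 15.6 ± 0.93 and 17.8 ± 2.0 CPM (log2 0.19 ± 0.11, adjusted p = 0.444). PEX7, which carries proteins with an N-terminal signal, was at 8.64 ± 0.47 and 8.14 ± 0.77 CPM. PEX14, a docking protein in the membrane, stood at 37.9, 36.7 and 38.02 CPM in the DMSO libraries and 42.6, 46.6 and 39.7 CPM in the GW0742 libraries. Every treated library was above every control, most narrowly in GW0742 replicate 3. The change was 14.5% (log2 0.20 ± 0.08) and did not pass in edgeR (adjusted p = 0.265). Its partner PEX13 lay the other way, at 16.2, 15.2 and 15.7 CPM and then 14.01, 15.1 and 13.7 CPM (log2 -0.14 ± 0.10, adjusted p = 0.504), with GW0742 replicate 2 just under the lowest control.

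None of the peroxins that release and recycle the import receptors passed, and PEX6 and PEX26 lay close to 0. PEX6, an ATPase that pulls PEX5 out of the membrane, stood at 20.8 ± 2.2 and 21.0 ± 1.7 CPM. PEX26, which anchors that ATPase, was at 43.2 ± 2.1 and 42.5 ± 1.1 CPM, with a 95% interval of 0.88-fold to 1.10-fold. PEX2 and PEX10 belong to the ubiquitin ligase that marks PEX5 for release. PEX2 stood at 6.51 ± 0.70 and 7.23 ± 0.61 CPM (adjusted p = 0.659). The PEX10 model ENSSSCG00000027916 had 10.8, 11.5 and 12.4 CPM with DMSO and 10.9, 11.4 and 18.6 CPM with GW0742, so that GW0742 replicate 3 stood alone above the other 5 libraries. Its log2 value of 0.24 became -0.05 without that library. The longer PEX10 model ENSSSCG00000029881 did not show this, with 26.6, 26.4 and 26.6 CPM in the GW0742 libraries and 27.0 ± 3.1 CPM with DMSO.

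Among peroxins that assemble and divide the membrane, none passed. PEX19, the peroxin with the most reads, had 97.2, 100.3 and 95.2 CPM with DMSO and 93.0, 85.5 and 92.5 CPM with GW0742. The groups stood apart by little, and the difference of -0.11 ± 0.06 in log2 had an adjusted p of 0.403. PEX16, a receptor for PEX19 cargo at the membrane, had log2 0.01 ± 0.09, and PEX3, the membrane anchor of PEX19, log2 -0.12 ± 0.14. PEX11A and PEX11G belong to the PEX11 family, which drives elongation and division of the organelle. PEX11A stood at 6.91 ± 0.87 and 8.06 ± 1.2 CPM (log2 0.22 ± 0.17, adjusted p = 0.545). PEX11G was lower in level, at 2.20 ± 0.32 and 1.95 ± 0.31 CPM (log2 -0.17 ± 0.24, adjusted p = 0.762). Both overlapped between the groups, and their 95% intervals of 0.89-fold to 1.52-fold and 0.61-fold to 1.29-fold are wider than that of PEX26.

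**Figure D4:**
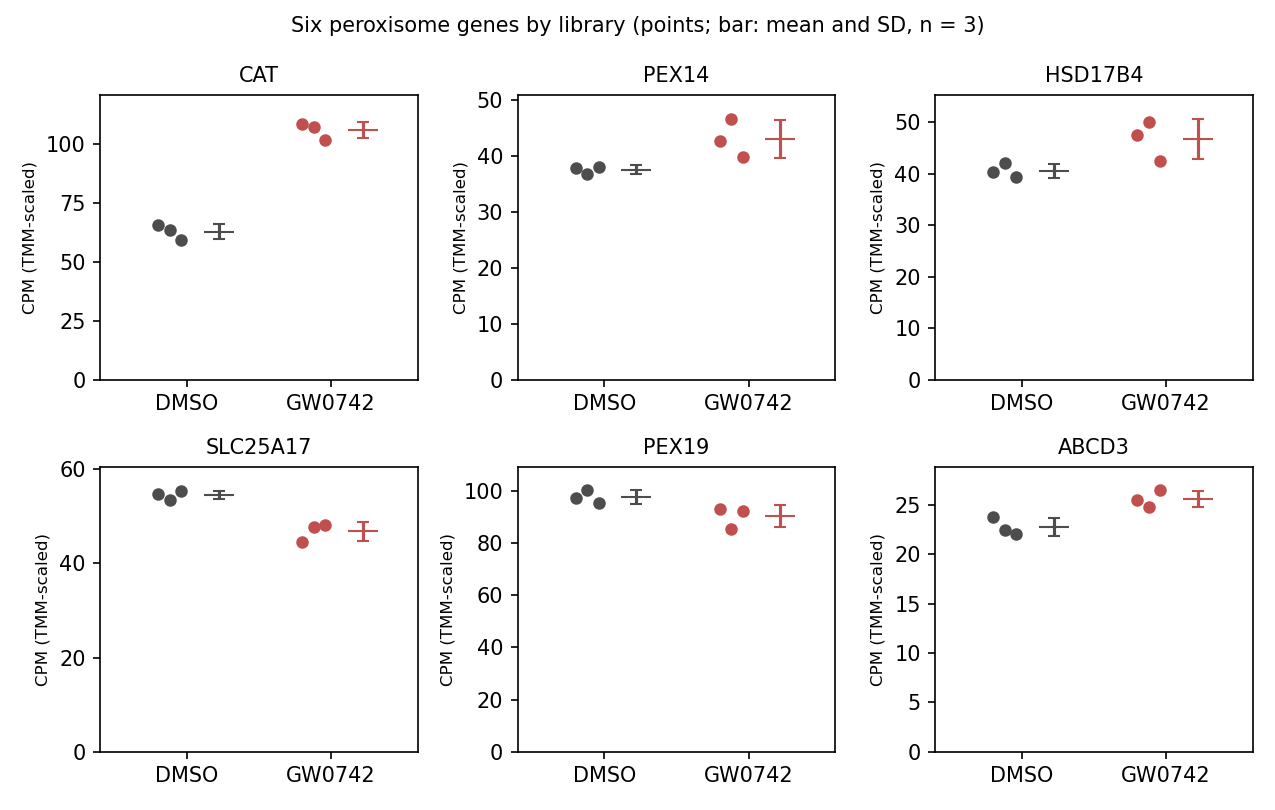
CPM of 6 peroxisome genes in each library (points, replicates 1 to 3 from left to right), with mean and SD (n = 3) beside them; each vertical axis starts at 0. CAT stands apart by 1.68-fold, while the gaps of PEX14, HSD17B4 and ABCD3 (higher) and SLC25A17 and PEX19 (lower) are small beside their levels.

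Membrane transporters lay in both directions. SLC25A17, a carrier of coenzyme A and related cofactors in the peroxisomal membrane, had 54.7, 53.5 and 55.2 CPM with DMSO and 44.4, 47.8 and 48.1 CPM with GW0742. Every treated library was below every control, by 14.2% on average (log2 -0.22 ± 0.07), yet it did not pass in edgeR (adjusted p = 0.161) or DESeq2 (adjusted p = 0.239). ABCD3, which brings branched-chain acyl-CoA and bile acid precursors into the organelle, had 23.7, 22.5 and 22.1 CPM and then 25.5, 24.8 and 26.5 CPM (log2 0.17 ± 0.08, adjusted p = 0.338). ABCD2, a transporter of very long chain acyl-CoA, had 4, 3 and 2 reads with DMSO and 0, 2 and 1 with GW0742, too few to test. A count of 0 in a library allows up to 3 reads, or between 0.177 and 0.228 CPM, for counting error only, and all its GW0742 libraries lay under that floor.

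ABCD4, a family member that is known to work on lysosomes in the transport of vitamin B12, is split over a pair of models with 1 protein name. The main model, ENSSSCG00000002362, stood at 33.8 ± 2.9 and 30.6 ± 1.6 CPM (log2 -0.14 ± 0.09, adjusted p = 0.451). The other, ENSSSCG00000002359, had 23, 12 and 16 reads with DMSO and 6, 6 and 8 with GW0742. Its 1.075 ± 0.25 and 0.452 ± 0.075 CPM (SD, n = 3) gave log2 -1.25 ± 0.31, the lowest value of the list, which did not pass (edgeR adjusted p = 0.120, DESeq2 adjusted p = 0.412). Whether the gene changed or its reads were shared out differently over the pair cannot be told apart.

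None of the 11 tested models of 9 beta-oxidation genes passed in edgeR, with 8 log2 values above 0 and 3 below. HSD17B4, the D-bifunctional protein that carries out the middle steps of the pathway, had 40.4, 42.1 and 39.4 CPM with DMSO and 47.6, 50.1 and 42.5 CPM with GW0742. The lowest treated library, replicate 3, lay just above the highest control (log2 0.20 ± 0.08, adjusted p = 0.259). ACAA1, the thiolase of the last step, had 17.3, 17.5 and 17.6 CPM and then 17.8, 19.8 and 20.6 CPM, again without overlap (log2 0.16 ± 0.09, adjusted p = 0.437). The oxidases of branched substrates lay on both sides of 0, with ACOX2 at 22.2 ± 2.8 and 23.3 ± 2.5 CPM and ACOX3 at 19.7 ± 2.4 and 17.9 ± 2.3 CPM. EHHADH, the L-bifunctional enzyme and a known PPARA target in liver, is low here and split over a pair of short models of 477 and 440 bases. ENSSSCG00000021723 had 10, 16 and 5 reads with DMSO and 9, 28 and 12 with GW0742, and ENSSSCG00000028398 had 45, 38 and 44 and then 41, 34 and 32. Neither passed (adjusted p = 0.555 and 0.774), and their log2 values of 0.68 ± 0.53 and -0.16 ± 0.23 differ in sign.

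The other enzymes that act on acyl-CoA overlapped between the groups. SCP2, whose gene encodes a thiolase and a lipid carrier, is split over ENSSSCG00000003853, with 3.92, 7.66 and 4.32 CPM with DMSO and 4.60, 4.05 and 4.64 CPM with GW0742, and ENSSSCG00000021578 (4.42 ± 0.39 and 4.77 ± 0.31 CPM). In the first of these DMSO replicate 2 stood far above the other 5 libraries, and the log2 value went from -0.25 to 0.10 without it. AMACR, a racemase of branched acyl-CoA, was at 9.28 ± 2.0 and 9.73 ± 0.34 CPM, and DECR2, a reductase for unsaturated acyl-CoA, at 10.19 ± 2.4 and 11.8 ± 2.7 CPM. ACOT8, a thioesterase that frees acids from coenzyme A, stood at 15.5 ± 2.7 and 17.3 ± 3.0 CPM. PECR, which reduces trans-2-enoyl-CoA, stood at 11.7 ± 0.68 and 13.04 ± 1.4 CPM (log2 0.16 ± 0.12, adjusted p = 0.545).

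The listed models of alpha-oxidation, which removes 1 carbon from phytanic acid, lay near 0, but a further HACL1 model described below did not. That model, ENSSSCG00000026677, had log2 0.37 ± 0.16 without overlap between the groups (edgeR adjusted p = 0.277). PHYH, the hydroxylase lost in Refsum disease, stood at 28.5 ± 2.4 and 27.6 ± 2.6 CPM (log2 -0.04 ± 0.10), and HACL1, the lyase of the next step, at 8.40 ± 0.47 and 8.34 ± 0.77 CPM (log2 -0.01 ± 0.13). The 3 genes of ether lipid synthesis did not pass. GNPAT and AGPS, which carry out the first steps inside the peroxisome, had log2 values of -0.07 ± 0.08 and 0.11 ± 0.09, with 42.6 ± 2.4 and 33.5 ± 1.1 CPM in the controls. FAR1, which supplies the fatty alcohol, had 66.7, 64.6 and 66.9 CPM with DMSO and 63.2, 58.9 and 64.6 CPM with GW0742, so that the groups touched at 64.6 without overlap (log2 -0.09 ± 0.06, adjusted p = 0.529). Beside CAT, the other peroxide-removing member is PRDX5, a peroxiredoxin that also works in mitochondria. It had 27.9, 27.6 and 27.2 CPM and then 30.1, 24.2 and 33.0 CPM, with treated libraries on both sides of the controls (log2 0.08 ± 0.11, adjusted p = 0.779). LONP2, a protease of the peroxisome interior, stood at 25.5 ± 3.0 and 27.8 ± 2.9 CPM (log2 0.12 ± 0.11, adjusted p = 0.634).

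Further peroxisomal genes outside the 35 did not pass either. Of 51 such genes 35 were matched and 32 tested, with 0 higher and 0 lower in edgeR and in DESeq2. An unadjusted p under 0.05 in edgeR was reached by 2 higher genes and no lower one, beside 7.93% and 8.91% of all tested models. Groups did not overlap in 7 of the 32, in which GW0742 was higher, and in 1 in which it was lower (ACSL4), beside 11.4% and 12.1% of all tested models. Their median log2 value was 0.05, and 20 of the 32 values were above 0, beside 49.8% of all tested models. The highest values at 1 CPM or more were those of NUDT7 (log2 0.32 ± 0.37), the acyl-CoA synthetase ACSL3 (0.31 ± 0.09, adjusted p = 0.164) and the contact site protein ACBD5 (0.29 ± 0.10, adjusted p = 0.191), and the lowest were ACBD4 (-0.20 ± 0.22) and ACSL4 (-0.15 ± 0.07).

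Antioxidant enzymes elsewhere in the cell were measured in the same way, with 22 of 25 matched and tested. In edgeR 0 were higher and 0 lower. An unadjusted p under 0.05 in edgeR was reached by 3 higher and 1 lower, beside 7.93% and 8.91% of all tested models. Groups did not overlap in 5 higher and 1 lower of the 22, beside 11.4% and 12.1% of all tested models. The median log2 value was 0.02. PRDX6, a cytosolic peroxiredoxin that also acts on oxidised phospholipids, stood at 165.4 ± 2.5 and 195.1 ± 5.2 CPM (log2 0.24 ± 0.05). It did not pass in edgeR (adjusted p = 0.101) and was the 1 enzyme that DESeq2 called (adjusted p = 0.015). SOD3, the extracellular superoxide dismutase, had log2 0.35 ± 0.13 (adjusted p = 0.233) and NQO1, a quinone reductase, 0.28 ± 0.17. GPX8, GPX4 and TXN2 had the lowest values, at -0.24 ± 0.12, -0.24 ± 0.21 and -0.21 ± 0.08.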

How the data were processed

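Per the labels' protocols, mRNA of 6 libraries was captured on oligo(dT) beads, copied with random hexamers and read on an Ion Proton instrument. Per the file headers, each deposited table lists per gene model its estimated count and its RPKM. Of the estimated counts that the authors deposited, 99.7% of those above 0 are fractional. The build is Sscrofa 10.2 per the submitters' processing notes, while for aligner and counting program the sources used here give no name. Reads of near-identical models may be split, and no strand is known.

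Symbols came from a gene name table. EHHADH was found through a protein name holding its gene number in the RefSeq table of assembly Sscrofa11.1. Lists outside the 35 also used names on which the protein match and the pathway identifier both led to 1 symbol.

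Estimated counts were rounded, filtered with filterByExpr (minimum count 10), scaled by TMM and compared by edgeR 4.0.16 in R 4.3.3 (quasi-likelihood F-test over all models), GW0742 against DMSO, two-sided, Benjamini-Hochberg adjusted. The SE is the log2 value divided by the root of F. The tests were checked on simulated counts. Members and lists were chosen with earlier results of these data known. All 35 members are named, with PPARD, ANGPTL4, PDK4 and CPT1A, and in the other lists genes past the threshold and the 3 highest and 3 lowest values at 1 CPM or more. Some genes that this rule names are not reported here. PDK4 rose too (log2 4.05 ± 0.30, edgeR adjusted p = 0.00151). It had 4, 5 and 4 reads with DMSO, near the floor of 3 reads, and 50, 83 and 79 with GW0742. Sequences of promoters and proteins were not analysed here. Chi-square values per degree of freedom within groups were 4.3 to 16.0, so no libraries agree within sampling noise.

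The alternatives tried were DESeq2 1.42.0, its size factors in edgeR, no filter on low counts, each library left out in turn, a replicate block, limma 3.58.1 on the log2 of deposited RPKM with a pseudocount of 1 or 0.1, an adjusted p under 0.01, summed models of 1 protein name, and symbols alone.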

Additional observations from a re-analysis of the deposited data

How the results depend on the processing

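CAT kept its direction and its side of the threshold under all 14 alternatives, with log2 values of 0.72 to 0.78 and adjusted p-values of 6.57e-16 (DESeq2) to 0.0355 (replicate block in edgeR). Each alternative called CAT higher and no other member in either direction. Over all models the called number moved with the setting: 37 in the reported fit, 441 with DESeq2, 76 with summed models, 21 and 22 with limma, 16 without a filter, 10 with the replicate block, and 6 (without DMSO replicate 1) to 101 (without GW0742 replicate 3). Deviations of same-numbered libraries had correlations of 0.005, -0.032 and -0.103, which cannot settle whether the libraries shared a culture, day or batch. The labels do not say what a replicate number marks, so the block is given here only. The median log2 value of the members, 0.04 as reported, was 0.067 with limma on log2(RPKM + 0.1), 0.061 on log2(RPKM + 1), 0.015 without a filter, 0.065 with summed models and 0.077 with symbols alone. It ran from -0.0059 (without GW0742 replicate 3) to 0.083 (without DMSO replicate 1) when each library was left out. DESeq2 called 1 antioxidant enzyme higher against 0 as reported.

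Log2 values changed sign in 31 cases, none past the threshold, and the cause was not tested. The largest of the values so changed were, as reported, NUDT7 (0.32), SCP2 ENSSSCG00000003853 (-0.25), PEX10 ENSSSCG00000027916 (0.24) and EHHADH ENSSSCG00000028398 (-0.16). With limma at pseudocounts of 0.1 and 1, PEX10 ENSSSCG00000029881 became 0.0054 and 0.0034, PEX26 0.0022 and 0.0021, and HACL1 0.0093 and 0.0085. With summed models, the log2 value was 0.059 for PEX10, 0.096 for PEX26, 0.050 for EHHADH, -0.071 for SCP2, 0.19 for HACL1 and -0.056 for NUDT7. With each library left out, log2 ranges were -0.025 to 0.19 for PRDX5, -0.046 to 0.38 and -0.11 to 0.050 for the PEX10 models, -0.062 to 0.087 for PEX6, -0.049 to 0.017 for PEX26, -0.23 to 0.0015 for PEX3 and -0.027 to 0.067 for PEX16. They were -0.016 to 0.16 for ACOX2, -0.43 to 0.10 for SCP2 ENSSSCG00000003853, -0.094 to 0.20 for AMACR, -0.12 to 0.024 for PHYH and -0.089 to 0.040 for HACL1.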

Other observations

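A further 8 gene models carry the protein name of a member that was found by symbol, and were looked at after the values of the members were known. None of the 7 that could be tested passed in edgeR. HACL1 ENSSSCG00000026677 had 7.84, 7.74 and 7.44 CPM with DMSO and 9.65, 11.9 and 8.30 CPM with GW0742, without overlap (log2 0.37 ± 0.16, adjusted p = 0.277), while the HACL1 model found by symbol had log2 -0.01. ACAA1 ENSSSCG00000028299 had 15, 7 and 15 reads with DMSO and 15, 20 and 30 with GW0742 (log2 0.89 ± 0.33, adjusted p = 0.228). PEX26 ENSSSCG00000029958 ranged from 1.05 to 8.46 CPM among DMSO libraries and from 6.58 to 10.6 CPM with GW0742, with overlap (log2 0.90 ± 0.53, adjusted p = 0.431). The 3 further LONP2 models had log2 values of 0.04, 0.01 and 0.19, and the ABCD3 model -0.10. The PEX19 model had 1 read in all and was not tested.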
